A study of Mus musculus with 6 samples.

Results

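Transcripts of 10 genes that mark cytotoxic cells, natural killer (NK) cells and the CD8 T cell lineage were followed in messenger RNA of splenic CD4+ T cells. The genes were taken by name: the granzymes Gzma, Gzmb and Gzmk, the pore-forming protein Prf1, the granule protein Nkg7, the chemokine Ccl5, the receptors Klrd1 and Klrk1, the transcription factor Eomes and the co-receptor Cd8a. Each of the 10 names matched 1 row of the 39171 gene rows in the library tables. The AngII group held 3 premenopausal C57BL/6 mice that were 10 weeks old when an osmotic minipump began to deliver angiotensin II (800 ng/kg/min, 14 days), and the Control group held 3 untreated mice of the same strain and age. Angiotensin II is a peptide hormone that raises blood pressure, and the minipump gives it continuously. Whether Control mice carried a pump is not given in the labels. Cells were taken from spleen suspensions with a magnetic CD4+ T cell isolation kit, with 1 library per mouse, and no sort by flow cytometry is named.

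Cytotoxic lymphocytes kill by releasing granules in which perforin opens a path into the target cell for granzymes, serine proteases that start cell death there. NK cells and CD8 T cells are the main carriers of this program, and a small share of CD4 T cells can also acquire it, as can NKT and gamma-delta T cells. Eomes and its relative Tbx21 are T-box factors that drive the program, and killer lectin-like receptors tune it. Because all of these cell types share most of the 10 genes, their level in a bulk CD4+ preparation counts any such cell that is present. Fewer cells of a type and less RNA per cell cannot be told apart in these libraries.

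The CD4+ T cell label was set against its defining markers. Cd4 was between 214 and 238 FPKM (fragments scaled by transcript length and by library size) in AngII libraries and between 203 and 254 FPKM in Control libraries. Of the CD8 co-receptor chains, Cd8a lay between 0.396 and 1.67 FPKM over all 6 and Cd8b1 between 9.33 and 12.0 FPKM, so Cd4 exceeded both in each library. That comparison covers CD8 T cells only. The macrophage marker C1qa exceeded Cd4 in AngII replicate 2 and in Control replicate 3, and lay below it in the other libraries. Vcam1, another macrophage marker, exceeded Cd4 in AngII replicate 2 only. The libraries therefore also held RNA of markers of other cells, which are summed further below. The libraries summed to 613674 to 717286 FPKM, and each held 11438 to 11757 genes at 1 FPKM or more. The number of reads per library is not known from these tables. The most frequent ratio of low values (below 0.3 FPKM) to those of AngII replicate 1 was 0.966 to 1.07 in the other libraries.

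The promoters of 4 members are shown because they set side by side the neighbours Gzma and Gzmk, whose levels had unlike patterns, and Gzmb and Nkg7, whose patterns were close to that of Gzma. Each is the 250 bases before the RefSeq start of the gene, build GRCm38.p6, on the strand of the gene: Gzma at chr13:113100982-113101231 (minus strand), Gzmk at chr13:113180966-113181215 (minus strand), Gzmb at chr14:56262335-56262584 (minus strand) and Nkg7 at chr7:43436888-43437137 (plus strand). Capitals mark matches, on either strand, to a T-box motif (TCACACC), a RUNX motif (ACCACA) or an AP-1 motif (TGANTCA).
Gzma: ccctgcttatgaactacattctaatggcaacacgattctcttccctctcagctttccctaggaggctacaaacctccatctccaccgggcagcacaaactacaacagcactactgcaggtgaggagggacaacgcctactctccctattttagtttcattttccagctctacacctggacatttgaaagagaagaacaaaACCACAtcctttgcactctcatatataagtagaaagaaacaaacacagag
Gzmk: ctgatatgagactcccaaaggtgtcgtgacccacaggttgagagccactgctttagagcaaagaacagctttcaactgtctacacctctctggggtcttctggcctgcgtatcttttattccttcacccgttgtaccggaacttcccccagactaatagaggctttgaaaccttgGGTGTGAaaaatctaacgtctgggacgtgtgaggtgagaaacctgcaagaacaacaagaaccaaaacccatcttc
Gzmb: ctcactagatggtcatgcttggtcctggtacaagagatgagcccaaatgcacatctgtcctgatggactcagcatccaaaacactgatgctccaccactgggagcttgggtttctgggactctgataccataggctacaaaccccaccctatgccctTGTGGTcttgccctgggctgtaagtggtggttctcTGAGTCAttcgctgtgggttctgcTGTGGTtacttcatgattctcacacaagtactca
Nkg7: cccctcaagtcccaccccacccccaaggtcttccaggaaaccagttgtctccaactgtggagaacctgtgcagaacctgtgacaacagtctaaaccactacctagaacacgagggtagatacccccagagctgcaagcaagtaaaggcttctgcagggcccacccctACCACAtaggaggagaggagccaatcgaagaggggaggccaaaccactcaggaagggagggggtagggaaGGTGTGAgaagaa
The Gzma window held 1 RUNX match, and the Gzmb window held 2 RUNX matches and 1 AP-1 match. The Gzmk window held 1 T-box match, and the Nkg7 window held 1 T-box and 1 RUNX match. Promoters were matched for 8 of the 10 genes. Of those 8, 2 held the T-box motif, 5 the RUNX motif and 1 the AP-1 motif, with no overlap between matches in the 4 windows shown. Among all 32851 promoter windows of the same length, 3.3% held the T-box motif, 14.0% the RUNX motif and 6.7% the AP-1 motif. A match is a run of letters and not a measured binding site.

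**Figure D1:**
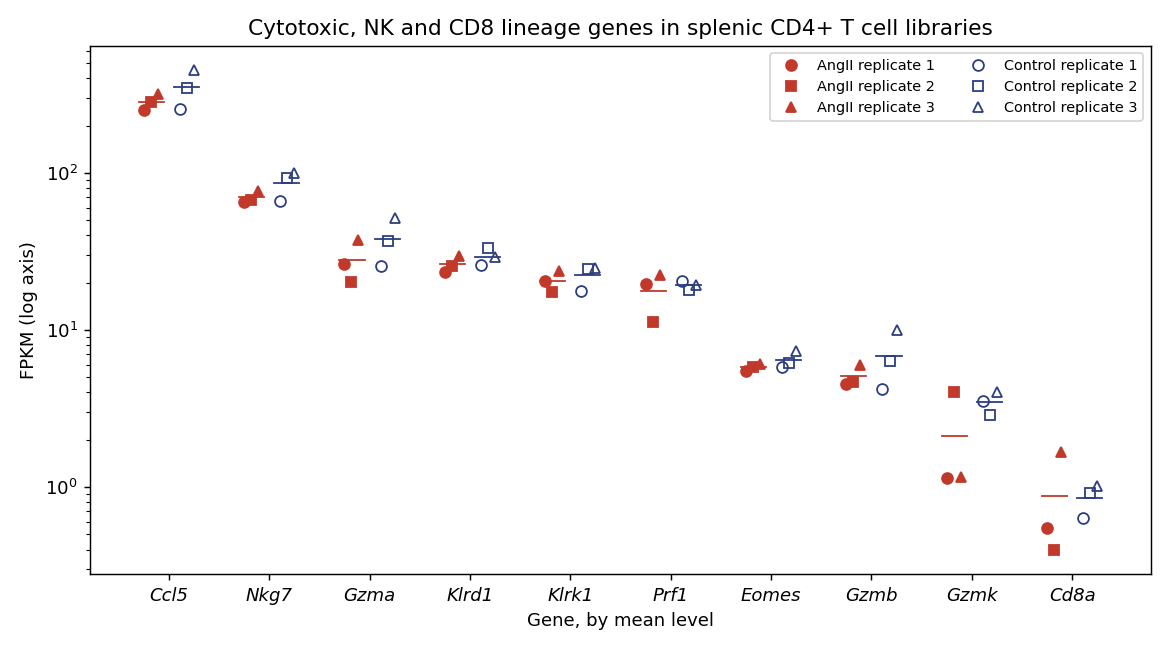
FPKM (log axis) of the 10 genes in each library, ordered by mean level, with AngII libraries as filled red symbols left of Control libraries as open blue symbols. Symbol shape is the replicate number of the label, and lines are group means. Ccl5 stands at 251 to 453 FPKM and Cd8a at 0.396 to 1.67 FPKM, and for each gene the groups overlap.

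The 10 genes spanned a wide range of levels. Per length, Ccl5 was the most abundant, with a mean FPKM over the 6 libraries that exceeded 97.9% of the 11842 genes tested (those with a mean of at least 1 FPKM). Nkg7 followed, 4.08-fold below Ccl5, and then Gzma, with ranges of FPKM that did not overlap between these 3 genes. Gzma, Klrd1, Klrk1 and Prf1 formed a middle band in which neighbours overlapped: Gzma exceeded Klrd1 in 4 of 6 libraries, and Klrk1 exceeded Prf1 in 5 of 6. Klrd1 exceeded Klrk1 in each of the 6 libraries, although their ranges overlapped. Eomes lay 3.03-fold below Prf1 by mean, and it exceeded Gzmb in 4 of 6 libraries, so these neighbours were not told apart. Gzmk came next, and Cd8a was last.

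No member passed the test for a difference between AngII and Control. The test was limma's linear model on log2(FPKM + 1) with Benjamini-Hochberg adjustment over all 11842 genes, and it called 0 of the 9 members that reached a mean of 1 FPKM, where it called 0.0338% of all genes. Each of the 9 had a limma adjusted p of 0.9999, and 0 of 9 had an unadjusted p below 0.05, against 1.76% of all genes. The groups did not overlap for 0 of the 9 members, against 5.84% of all genes (3.48% with AngII lower). All 9 had a negative difference, as had 52% of all genes, and their median was -0.27 on the log2 scale, against -0.004 for all genes tested. Since members share the cells and libraries they come from, the 9 differences are not 9 independent results. The median was -0.15 without Control replicate 3 and -0.46 without Control replicate 1. The tenth, Cd8a, was under the filter.

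**Figure D2:**
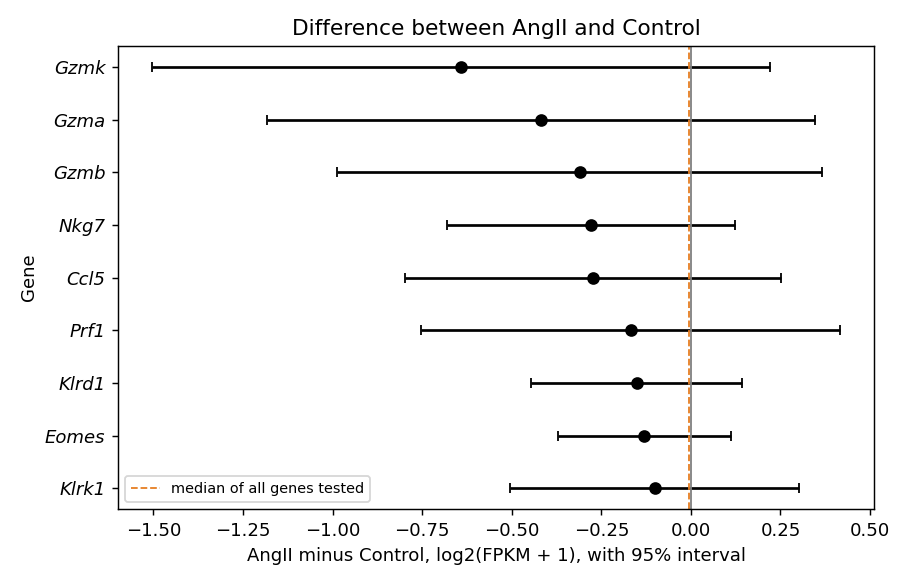
Difference between AngII and Control in log2(FPKM + 1) for the 9 members tested, with 95% intervals from limma, and the median of all genes tested as a dashed line. All 9 points lie below 0, between -0.64 (Gzmk) and -0.10 (Klrk1), and each interval includes 0.

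Granzyme A, a protease that cleaves after basic residues, had 26.2, 20.2 and 37.3 FPKM in AngII replicates 1, 2 and 3, against 25.5, 36.7 and 51.7 FPKM in Control replicates 1, 2 and 3. AngII replicate 2 was lowest and Control replicate 3 highest, and the groups overlapped. The mean was 27.9 ± 8.71 FPKM in AngII and 38.0 ± 13.2 FPKM in Control (SD, n = 3 each), a log2 difference of -0.42 (95% interval -1.18 to 0.35). It was -0.17 without Control replicate 3, -0.21 without AngII replicate 2, -0.64 without AngII replicate 3 and -0.67 without Control replicate 1. Gzma (ENSMUSG00000023132) lies on chromosome 13 from 113093825 to 113100981 in GENCODE M21 (GRCm38), and no other annotated gene overlaps it.

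Granzyme B, which cleaves after aspartate and activates caspases, was lower in level than Gzma throughout. It had 4.54, 4.68 and 5.99 FPKM in AngII libraries, against 4.20, 6.32 and 10.0 FPKM in Control libraries. Control replicate 3 was highest and Control replicate 1 lowest, so the 3 Control values enclosed the 3 AngII values. The log2 difference was -0.31 (95% interval -0.99 to 0.37). It was -0.031 without Control replicate 3 and -0.57 without Control replicate 1. Within a library, Gzma exceeded Gzmb by 4.31- to 6.23-fold, so the proportion of these granzymes moved less than either level. The related granzymes Gzmd, Gzme and Gzmg, which sit beside Gzmb in the same gene cluster, were listed at 0 in all 6 libraries, and Gzmc lay between 0.401 and 0.976 FPKM.

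Granzyme K, known in T cells that are less differentiated than those rich in Gzmb, had another pattern. It had 1.15, 4.02 and 1.16 FPKM in AngII replicates 1, 2 and 3, against 3.53, 2.88 and 4.02 FPKM in Control libraries. AngII replicates 1 and 3 were the lowest, while AngII replicate 2 and Control replicate 3 were the highest. The log2 difference of -0.64 was the largest among the members, with a 95% interval from -1.50 to 0.22. Without AngII replicate 2 the difference was -1.05, with a limma unadjusted p of 6.65e-04 and a limma adjusted p of 0.632, and its range over the libraries left out in turn was -1.05 to -0.44. The annotated span of Gzmk (chromosome 13, 113171608 to 113225908) overlaps Esm1 on the other strand. Esm1 was at 0.178, 0.573 and 0.131 FPKM in AngII libraries and 0.672, 0.412 and 0.603 FPKM in Control libraries. This overlap is of whole annotated spans, and exons were not compared. Whether reads were counted by strand is not given in the sources used here, and whether this pair shared reads was not tested.

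Perforin, the pore-forming partner of the granzymes, was the most even of the granule proteins among the 10 genes in Control mice. Prf1 had 19.6, 11.3 and 22.3 FPKM in AngII libraries, against 20.5, 18.1 and 19.4 FPKM in Control libraries. AngII replicate 2 stood alone at the low end, and the highest value was also in AngII. The log2 difference was -0.17 (95% interval -0.75 to 0.42), and it turned to 0.11 without AngII replicate 2. It was -0.26 without AngII replicate 1 and -0.35 without AngII replicate 3. The ratio of Prf1 to Gzma lay between 0.559 and 0.748 in AngII libraries and between 0.375 and 0.804 in Control libraries, so perforin did not keep step with Gzma.

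Nkg7, a granule membrane protein needed for efficient granule release, had 65.6, 67.5 and 76.8 FPKM in AngII libraries, against 66.2, 92.3 and 100.2 FPKM in Control libraries. Control replicates 2 and 3 were above all AngII libraries, and Control replicate 1 was among them. The log2 difference was -0.28 (95% interval -0.68 to 0.12), with an unadjusted limma p of 0.140 (adjusted p = 0.9999). It was -0.16 without Control replicate 3 and -0.46 without Control replicate 1.

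Ccl5, a chemokine stored by effector and memory T cells and NK cells that draws leukocytes, had 251, 285 and 319 FPKM in AngII libraries, against 256, 347 and 453 FPKM in Control libraries. The pattern was that of Nkg7, with Control replicate 1 among the AngII values. The mean was 285 ± 34.0 FPKM in AngII and 352 ± 98.3 FPKM in Control (SD, n = 3 each), a log2 difference of -0.27 (95% interval -0.80 to 0.25). It was -0.074 without Control replicate 3 and -0.48 without Control replicate 1. The ratio of Ccl5 to Nkg7 lay between 3.76 and 4.52 in all 6 libraries. Ccr1, which binds Ccl5, stayed below 0.5 FPKM in each library. Ccr3, which also binds it, had 21.3, 45.8 and 19.7 FPKM in AngII libraries, against 17.3, 20.2 and 26.0 FPKM in Control libraries, and it did not pass the limma threshold.

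The receptors Klrd1 and Klrk1 varied less over the 6 libraries than the 3 granzymes. Klrd1 (CD94), which pairs with Klrc1 to bind the nonclassical class I molecule H2-T23, had 23.6, 25.6 and 29.6 FPKM in AngII libraries, against 25.8, 33.1 and 29.1 FPKM in Control libraries. The groups overlapped, and the log2 difference was -0.15 (95% interval -0.45 to 0.14). It was -0.064 without Control replicate 2, -0.079 without AngII replicate 1, and -0.24 without AngII replicate 3 or Control replicate 1. Klrc1 averaged 15.9 ± 3.66 FPKM in AngII and 17.6 ± 3.92 FPKM in Control, and Klrd1 exceeded it by 1.39- to 2.03-fold within each library. Klrk1 (NKG2D), an activating receptor for stress-induced ligands, had 20.5, 17.6 and 23.9 FPKM in AngII libraries, against 17.7, 24.4 and 24.8 FPKM in Control libraries. Its log2 difference was the smallest of the 9, at -0.10 (95% interval -0.51 to 0.30), and was 0.0037 without AngII replicate 2. It was also closer to 0 without Control replicate 3 (-0.020) or Control replicate 2 (-0.031), and further from it without AngII replicate 3 (-0.21) or Control replicate 1 (-0.25). Hcst (DAP10), the adapter of Klrk1 that T cells also express widely, averaged 151 ± 12.6 FPKM in AngII and 175 ± 19.7 FPKM in Control, and its log2 difference of -0.20 missed the threshold (limma adjusted p = 0.9999).

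Eomes, the T-box factor of memory CD8 T cells and NK cells, was the steadiest member. It had 5.45, 5.80 and 6.10 FPKM in AngII libraries, against 5.84, 6.15 and 7.35 FPKM in Control libraries, and the groups overlapped. The log2 difference was -0.13 (95% interval -0.37 to 0.11), and it was -0.044 without Control replicate 3. Its within-group SD of 0.117 on the log2 scale exceeded that of 43.1% of all genes tested, whereas those of Gzma and Gzmk exceeded 93.5% and 94.3%. An antisense transcript, Gm33460, overlaps Eomes in the annotation and was not analysed here. Tbx21 (T-bet), the factor of Th1 cells and cytotoxic cells alike, averaged 9.61 ± 1.54 FPKM in AngII and 10.2 ± 2.95 FPKM in Control (SD, n = 3 each). Within a library, Tbx21 exceeded Eomes by 1.29- to 1.92-fold.

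Cd8a encodes the alpha chain of the co-receptor that defines CD8 T cells. It had 0.551, 0.396 and 1.67 FPKM in AngII libraries, against 0.639, 0.913 and 1.01 FPKM in Control libraries. AngII replicate 3 was the highest and AngII replicate 2 the lowest, so AngII enclosed Control. The difference of means was 0.018 FPKM, with p = 1 in an exact permutation test (two-sided, where 3 libraries against 3 cannot go below 0.1), and on the log2(FPKM + 1) scale the difference was -0.04. The difference of means was -0.381 FPKM without AngII replicate 3 and -0.0898 FPKM without Control replicate 1. Cd8b1, the beta chain that pairs with Cd8a on conventional CD8 T cells, was 7.18- to 23.6-fold higher than Cd8a in every library. How fragments were assigned to these genes is not given in the sources used here, and its part in this gap was not tested. Cd8b1 averaged 10.4 ± 1.45 FPKM in AngII and 10.4 ± 0.343 FPKM in Control (SD, n = 3 each). Cd4 exceeded Cd8b1 by 18.9- to 25.2-fold. Runx3, which represses Cd4 in the CD8 lineage, averaged 33.2 ± 6.02 FPKM in AngII and 33.5 ± 3.15 FPKM in Control, and Zbtb7b, the factor of the CD4 lineage, averaged 69.2 ± 15.46 FPKM in AngII and 70.9 ± 3.27 FPKM in Control.

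The members varied among mice of 1 group as well as between the groups. Of the 10, 6 were highest in Control replicate 3, which were Gzma, Gzmb, Nkg7, Ccl5, Klrk1 and Eomes. Of the lowest values, 5 fell in AngII replicate 1, 4 in AngII replicate 2 and 1 in Control replicate 1. The summed level of the 10 was 418, 442 and 524 FPKM in AngII libraries and 426, 568 and 700.5 FPKM in Control libraries, with Ccl5 as its largest part. Control replicate 1 thus sat with AngII replicates 1 and 2, and AngII replicate 3 sat next to Control replicate 2.

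**Figure D3:**
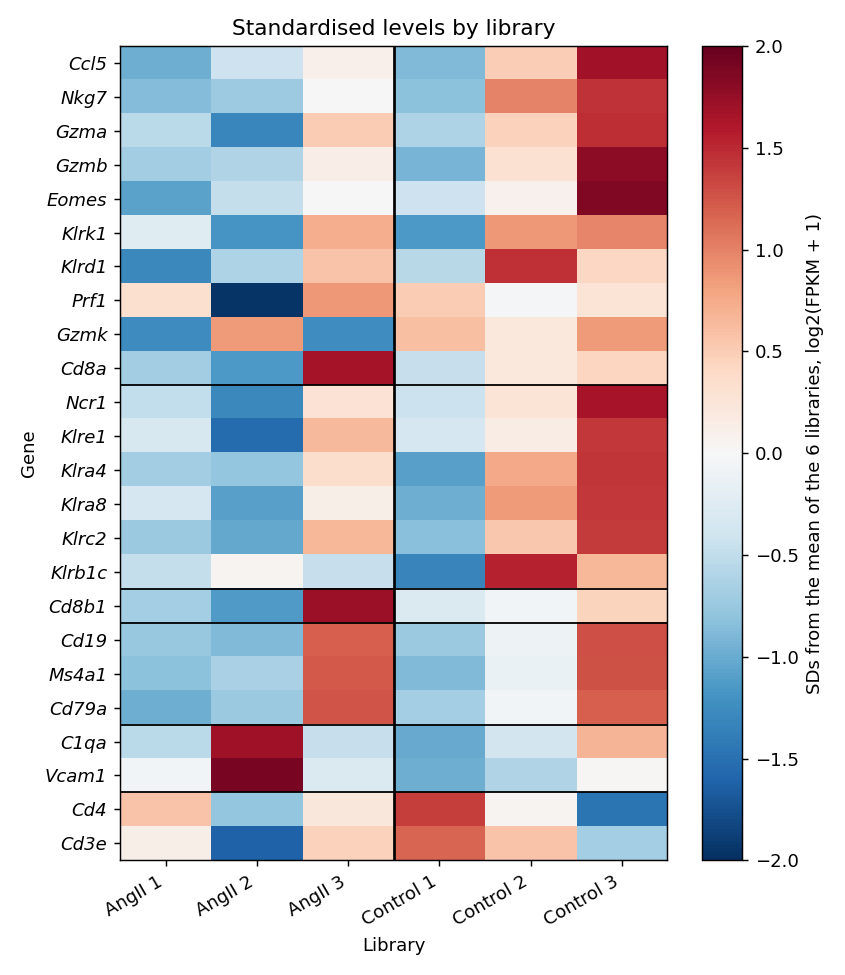
Levels by library as SDs from the mean of the 6 libraries of log2(FPKM + 1), red high and blue low, with AngII libraries left of the black line and Control libraries right. From the top, blocks hold the 10 members, 6 NK cell markers, Cd8b1, 3 B cell markers, 2 macrophage markers, and Cd4 with Cd3e. Most members and NK markers are highest in Control replicate 3, while Prf1, Gzmk and Cd8a follow other patterns.

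Several transcripts of NK cells were highest in the same library as most members, and others were not. Ncr1 (NKp46), a receptor that marks NK cells in the mouse, had 3.84, 2.95 and 4.89 FPKM in AngII libraries, against 3.93, 4.88 and 7.34 FPKM in Control libraries, and its order of libraries was that of Gzma but for the exchange of AngII replicate 1 and Control replicate 1. Klrb1c (NK1.1), found on NK and NKT cells, had 21.6, 23.2 and 21.7 FPKM in AngII libraries and 19.3, 28.5 and 25.3 FPKM in Control libraries, so it was highest in Control replicate 2 and lowest in Control replicate 1. Of 10 listed NK markers 9 were matched, and 0 of them were at 0 in all libraries. Tyrobp and Fcer1g, which myeloid cells also carry, made up most of the sum. Without them the NK markers summed to 34.4 to 39.9 FPKM in AngII and 32.4 to 49.998 FPKM in Control. Of the 8 NK markers tested, 6 had a negative difference. The 2 with a positive difference were the 2 left out of that sum, Tyrobp (0.03) and Fcer1g (0.11). None passed limma (adjusted p = 0.9999 for Ncr1).

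The ratio to Ncr1 within a library describes how closely each gene kept to it. Ncr1 was chosen after its order of libraries was seen to be close to that of Gzma, so a narrow range for Gzma restates that order and supports nothing further. Gzma stood at 6.83, 6.83 and 7.64 times Ncr1 in AngII libraries and 6.495, 7.51 and 7.05 times in Control libraries, a 1.18-fold range where Gzma itself ranged 2.57-fold. Gzmb per Ncr1 ranged 1.48-fold, against 2.39-fold for Gzmb. NK receptors that are no members went both ways: Klre1 per Ncr1 ranged 1.24-fold, against 2.59-fold for Klre1, while Klrb1c per Ncr1 ranged 2.28-fold, against 1.48-fold for Klrb1c. For Klrd1 the ratio ranged 2.19-fold, against 1.40-fold for the gene alone, and for Eomes 1.96-fold against 1.35-fold. Gzmk per Ncr1 ranged 5.74-fold. The part of NK cell RNA in the level of any member was not tested.

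**Figure D4:**
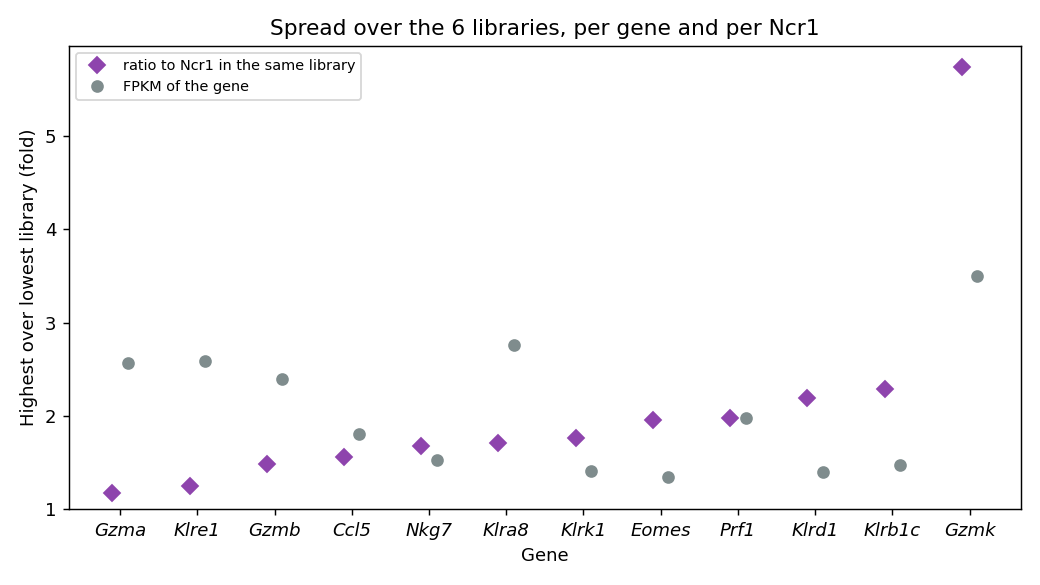
Highest over lowest of the 6 libraries (fold), for each gene's FPKM as grey circles and for its ratio to Ncr1 in the same library as purple diamonds. The ratio ranged less than the level for Gzma (1.18 against 2.57) and more for Klrd1 (2.19 against 1.40) and Gzmk (5.74 against 3.50). Cd8a is not drawn, and its ratio ranged less than its level (2.55 against 4.22).

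Markers of other cells also differed between libraries. The 6 CD8 T cell markers, which include Cd8a and Eomes, summed to 64.9 to 79.1 FPKM in AngII and 71.8 to 101 FPKM in Control, mostly from Xcl1 and Ctsw. Of these 6, 3 were highest in Control replicate 3 (Xcl1, Ctsw and Eomes). The co-receptor chains Cd8a and Cd8b1 were highest in AngII replicate 3. The 5 B cell markers summed to 31.2, 34.8 and 102 FPKM in AngII libraries and 32.2, 46.3 and 103 FPKM in Control libraries, so that replicate 3 of each group stood apart. With those 2 libraries left out together, a setting chosen after the values were seen, the median difference of the 9 members was -0.23 and 0 of 9 were called. The 5 macrophage markers summed highest in AngII replicate 2, to 1211 FPKM, against 564 to 859 FPKM in the other libraries. Of these 5, 4 were highest there. Adgre1 was highest in Control replicate 2 (60.9 FPKM, against 57.4 FPKM in AngII replicate 2). AngII replicate 2 was the lowest library for Gzma, Prf1, Klrk1 and Cd8a and one of the highest for Gzmk. Of the 5 gamma-delta and innate-like markers 4 were matched, summing to 12.1 to 17.9 FPKM in AngII and 12.8 to 19.8 FPKM in Control. The 5 neutrophil markers summed to 21.0, 67.3 and 59.96 FPKM in AngII libraries and 7.42, 7.47 and 36.2 FPKM in Control libraries, and the 4 that were tested had positive differences with a median of 1.43 on the log2 scale, while Ly6g, their defining surface marker, was listed at 0 in 5 of 6 libraries. The 3 platelet markers summed to 186, 139 and 164 FPKM in AngII libraries and 70.7, 84.9 and 219.5 FPKM in Control libraries, with a median difference of 0.56. No gene of these 2 lists passed limma. The part of these cells in the members' levels was not tested.

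**Figure D5:**
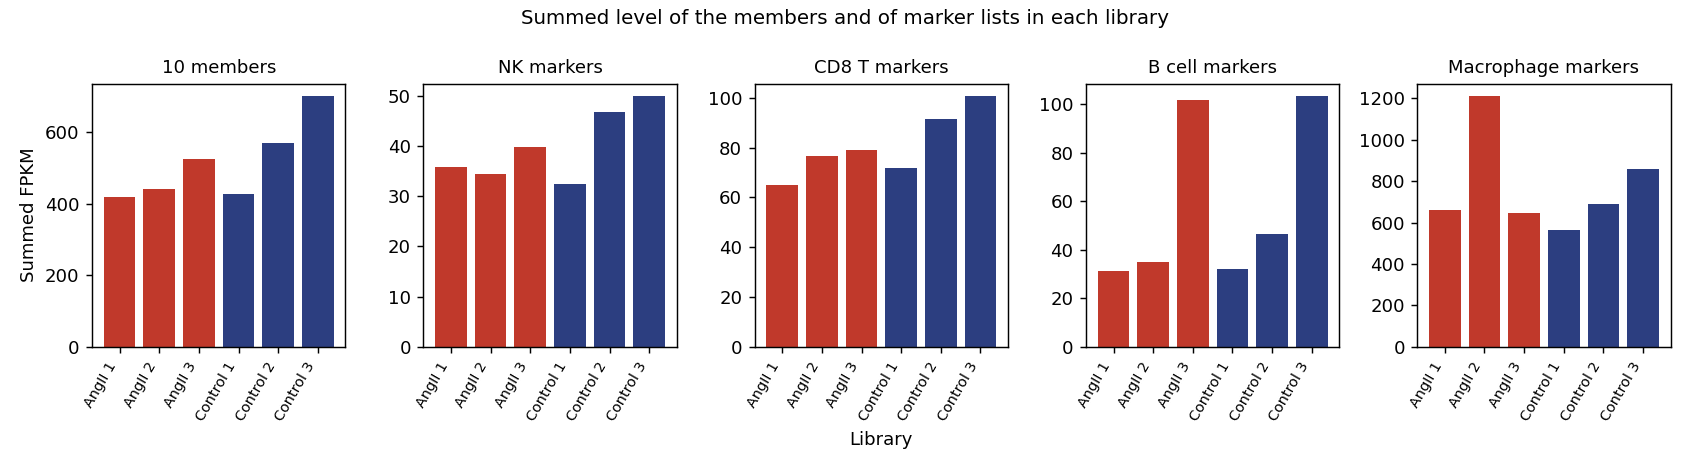
Summed FPKM of the 10 members and of marker lists in each library, AngII in red left of Control in blue, with a separate axis from 0 in each panel. NK markers are shown without Tyrobp and Fcer1g. The sums of members, NK markers and CD8 T markers are highest in Control replicate 3. Those of B cell markers are highest in replicate 3 of both groups, and that of macrophage markers in AngII replicate 2. Taken singly, the CD8 chains Cd8a and Cd8b1 are highest in AngII replicate 3.

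Wider lists of the cytotoxic program gave no called gene in either direction. Among granule contents and their serpin inhibitors 7 of 14 genes were tested, 0 rose and 0 fell, and the median difference was -0.08. Ctsw, a protease of cytotoxic lymphocytes, averaged 29.4 ± 3.43 FPKM in AngII and 35.5 ± 4.72 FPKM in Control, and Ctsc, which activates granzymes, averaged 90.0 ± 10.9 FPKM in AngII and 78.7 ± 11.1 FPKM in Control (limma adjusted p = 0.9999 for both). Gzmm stayed below 1 FPKM in each library. The release machinery (7 of 8 tested, 0 called) had a median difference of -0.00089. Of its genes, Unc13d and Stxbp2, which prepare granules for fusion, ranged 1.11- and 1.20-fold over the 6 libraries. Rab27a, which docks granules, ranged 1.64-fold, Lyst 1.79-fold and Stx11 1.84-fold, and Vamp8 had a difference of -0.13.

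Killer receptors and adapters (22 of 25 tested, 0 called) had a median difference of -0.14, with 15 of 22 negative. Sh2d1a, the SAP adapter of T and NK cells, averaged 59.95 ± 5.02 FPKM in AngII and 65.8 ± 1.78 FPKM in Control. Genes within the Klra and Klrc families are related in sequence, so their levels are uncertain where reads were shared. Partners and ligands of the members (10 of 13 tested, 0 called) had a median of -0.08, and Fasl, a death ligand of cytotoxic cells, averaged 11.1 ± 0.913 FPKM in AngII and 11.9 ± 2.55 FPKM in Control.

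Effector chemokines, cytokines and homing receptors (14 of 14 tested, 0 called) had the lowest median of these 6 lists, at -0.20, with 11 of 14 negative. The groups did not overlap for 2 of these 14, Tnf and Itgal, both lower in AngII, where 3.48% of all genes had that pattern. Tnf had 4.04, 4.95 and 4.04 FPKM in AngII libraries, against 5.29, 5.58 and 5.03 FPKM in Control libraries (log2 difference -0.24, limma adjusted p = 0.9999). Itgal, the LFA-1 integrin chain of killer and helper T cells, averaged 125 ± 11.8 FPKM in AngII and 142 ± 5.24 FPKM in Control. Ifng had 13.5, 28.3 and 16.8 FPKM in AngII libraries, against 24.7, 29.8 and 28.5 FPKM in Control libraries, with AngII replicate 2 within the Control range. Ccl3 and Ccl4, chemokines often released with Ccl5, varied most within Control. Ccl3 had 9.70, 12.2 and 13.1 FPKM in AngII libraries, against 6.28, 11.8 and 29.7 FPKM in Control libraries. Ccl4 had 7.30, 10.9 and 10.8 FPKM in AngII libraries, against 6.25, 11.2 and 28.0 FPKM in Control libraries, so that Control held both the lowest and the highest value of each. Effector and lineage transcription factors (14 of 14 tested, 0 called) had a median of -0.06, with Id3 at 16.47 ± 4.03 FPKM in AngII and 21.497 ± 3.57 FPKM in Control (SD, n = 3 each).

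Among the genes outside the lists that were compared, those closest to the members in pattern were of low level. Likeness was the root mean square difference, over the 6 libraries, between a gene's standardised log2 level and the mean standardised level of the 9 members tested, among 1059 protein-coding genes with an SD of at least 0.25 that are neither listed, predicted nor receptor segments. The closest were Cd209a (0.204), Ace (0.214), Klk1 (0.240), Tppp3 (0.243), Lyrm9 (0.280), Siglech (0.285), Cma1 (0.367) and Gstp2 (0.397). Of these, Ace, Klk1, Tppp3 and Gstp2 averaged 0.614, 0.950, 0.769 and 0.731 FPKM in AngII. They passed the filter on the mean of the 6 libraries only through Control, where they averaged 1.81, 1.90, 1.32 and 1.33 FPKM. The SD floor also left out steadier genes, so the low level of the closest genes holds only for the genes compared. Cd209a and Siglech are markers of dendritic cells. Siglech had 2.23, 2.76 and 3.05 FPKM in AngII libraries, against 2.47, 3.55 and 5.04 FPKM in Control libraries, and Cd209a had 1.03, 1.003 and 1.61 FPKM in AngII libraries, against 1.01, 1.86 and 3.34 FPKM in Control libraries. Both were highest in Control replicate 3, and the groups overlapped. Among the members themselves the value was 0.204 for Nkg7, 0.265 for Ccl5 and 0.273 for Gzma, and 1.03 for Prf1 and 1.12 for Gzmk. Each member is part of the mean it is compared with, so some of its closeness is built in. Ctsw (0.167) and Klrc2 (0.233), from the lists above, were about as close as Nkg7, Ccl5 and Gzma. The SD floor was not applied to members or listed genes. This likeness over 6 libraries is a description of them.

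In the authors' deposited table, which compares both conditions by number with no direction taken here, 0 of the 10 members had a q-value below 0.05. The smallest p-value of the 10 members in the authors' deposited table was 0.00425 for Gzma, with a q-value of 0.666. Ccl5 had a p-value of 0.0159, Nkg7 0.0245, Gzmk 0.0293 and Gzmb 0.0391 in the authors' deposited table, each with a q-value of 0.999918. The other 5 had p-values from 0.280 to 0.925 there. The share of all genes with such p-values or q-values in that table was not counted, so these values have no background beside them.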

How the data were processed

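Per the labels' protocols, splenic CD4+ T cells were taken with a magnetic kit and libraries made with an Illumina TruSeq protocol. Per the submitters' processing notes the tools were Trimmomatic 0.32, TopHat2 2.1.1 and Cuffdiff with build GRCm38.p3; which program wrote the library tables, with which annotation and strand setting, is not given in the sources used here. Values were deposited by the authors as FPKM per gene, in 1 table per library. The authors' deposited table of the series gives a p-value and a q-value per gene; its condition columns were not used.

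A count test was not applied, since the values are FPKM. The scale tested was log2(FPKM + 1), without further scaling, over the 11842 genes whose mean reached 1 FPKM, with limma 3.58.1 in R 4.3.3 (eBayes with intensity trend, two-sided, threshold adjusted p below 0.05); fold changes on this scale understate those of low genes. On simulated data (11502 genes) the code recovered 42.0% of genes changed by 0.5 and 76.0% of those changed by 1 on the log2 scale. The noise was independent between genes and libraries, and the changed genes were all set above the levels of Gzmb, Gzmk and Eomes. Gzma and Gzmk also had a larger spread than most genes, so these shares need not hold for the members. The number of libraries limits precision. Promoter sequences are RefSeq's. Python 3.11.15 and matplotlib 3.10.9 were also used. Members, lists and tests were chosen with earlier results of these data known. Named list genes include genes of smallest p per list (up to 4) and fixed additions, though not every gene of smallest p is named. Others, such as Ccl3, Ccl4, Unc13d and Rab27a, were named outside this rule with their values known. Alternatives covered pseudocount, filter, scaling, eBayes setting, library weights, replicate block, threshold and each library left out. Of the listed genes, 1 is not reported here.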

Additional observations from a re-analysis of the deposited data

How the results depend on the processing

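No member was called by limma in any of the alternatives run. Of 173 member differences under other settings, 170 kept their direction or moved by less than the spread between replicates. A change of filter, eBayes setting or replicate block leaves the estimate of a gene as it is. Differences under those settings are among the 170 and could not have moved. The smallest limma adjusted p of the 173 was 0.275 (Gzmk with library weights). The members' median difference lay between -0.456 (without Control replicate 1) and -0.154 (without Control replicate 3). Prf1 turned to 0.121 with library weights and to 0.11006 without AngII replicate 2, where Klrk1 was at 0.00375; its range with a library left out was -0.352 to 0.11006, and that of Klrk1 -0.253 to 0.00375. The Cd8a difference lay between -0.381 and 0.257 FPKM with a library left out. Over all genes the count called was 4, against 7 with no filter on low values, 4 to 9 with a library left out (9 without AngII replicate 3, 8 without Control replicate 1, 7 without Control replicate 3) and 12 with both libraries rich in B cell markers left out. With the replicate block 3 genes and 0 members were called. Over all genes tested, same-numbered libraries did not deviate together (r = -0.0802, -0.0229 and -0.0352). Ccl5, Nkg7, Gzmb and Eomes nonetheless rose from replicate 1 to replicate 3 in both groups, and B cell markers summed highest in replicate 3 of each. The share of all genes that rose in this way was not counted. The limma unadjusted p went from 0.2295 to 0.0866 for Gzma with the block, and from 0.119 to 0.158 for Gzmk. Whether same-numbered libraries share a batch was not tested. The cause of these shifts was not tested. The depth behind each value is not known from these tables.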
